A study of Mus musculus with 7 samples.

Results

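The olfactory receptor genes of mouse chromosome 11 were the protein-coding genes of the RefSeq table (GRCm38.p6, the build also called mm10) on this chromosome whose symbol was Olfr or Or followed by a digit. There were 83 of them among 21130 protein-coding genes with their midpoint in the stretch of a chromosome from its first to its last lamin-associated domain (LAD), and among 1109 olfactory receptor genes in those stretches. The data came from CUT&RUN, in which an antibody on chromatin directs a nuclease to cut out the DNA around its target, in mouse embryonic fibroblasts labelled iMEF, cell lines derived separately from a single mouse colony. Of the 7 libraries, 2 were for Lamin B1, which is part of the protein mesh under the nuclear envelope, 2 for the IgG control, 2 for H3K9me2 and 1 for H3K14ac. No treatment, strain, sex or genetic change is named in the labels, and wild type appears only in the name of the domain list. The values below come from 1 merged list of 1437 LADs. It holds positions only, so the read depth is unknown, no value has a replicate error, no test was made, and the fibroblast label could not be set against expression of marker genes.

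Olfactory receptors are G protein-coupled receptors that detect odorants in the nose. Each mature olfactory sensory neuron expresses a single receptor gene, usually from one allele, and the remaining receptor genes are held silent in compact chromatin. The genes lie in tandem arrays that grew by duplication, and the coding sequence of a receptor is usually an uninterrupted exon. Chromatin at the lamina is typically poor in active genes.

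The 83 genes formed 7 clusters when members over 500 kb apart were put in different clusters. Within clusters the median space between neighbouring members was 17.8 kb and the widest 172.9 kb, while the narrowest space between clusters was 728.7 kb. No member was alone. The gene models had a median length of 954 bp, from 921 to 28487 bp. Placement did not depend on how a gene was located. The midpoint, the start site, the whole gene and any overlap each put the same number of members, 31, in LADs.

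Borders of LADs ran through 2 clusters, and the RefSeq sequences around the annotated start of the members on either side of a border are shown because these neighbours lie closest together on opposite sides. Each window runs 5′ to 3′ on the gene's strand from 250 bases before to 50 bases after the start (GRCm38.p6). Capitals mark matches on either strand to TAATNA, the core of many homeodomain binding sites, or to TATAAA, the TATA box.
Olfr1386, in a LAD, chr11:49469804-49470103, plus strand: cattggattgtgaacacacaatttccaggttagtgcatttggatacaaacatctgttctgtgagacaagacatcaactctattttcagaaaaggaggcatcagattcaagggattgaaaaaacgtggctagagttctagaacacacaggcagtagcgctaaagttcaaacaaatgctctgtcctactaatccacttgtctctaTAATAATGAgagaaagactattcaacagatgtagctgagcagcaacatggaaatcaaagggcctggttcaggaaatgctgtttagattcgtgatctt
Olfr1385, outside, chr11:49494285-49494584, plus strand: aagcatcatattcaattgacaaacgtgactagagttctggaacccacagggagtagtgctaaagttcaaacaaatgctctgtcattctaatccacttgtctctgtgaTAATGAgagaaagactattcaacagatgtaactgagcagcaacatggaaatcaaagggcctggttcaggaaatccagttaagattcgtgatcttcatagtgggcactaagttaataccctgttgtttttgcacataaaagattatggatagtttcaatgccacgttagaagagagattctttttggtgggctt
Olfr59, in a LAD, chr11:74283486-74283785, plus strand: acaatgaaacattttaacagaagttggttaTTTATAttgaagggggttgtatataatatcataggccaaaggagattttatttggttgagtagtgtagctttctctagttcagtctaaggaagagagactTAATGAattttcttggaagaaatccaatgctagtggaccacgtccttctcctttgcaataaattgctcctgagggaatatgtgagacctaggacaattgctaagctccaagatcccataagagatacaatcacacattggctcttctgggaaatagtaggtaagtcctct
Olfr410, outside, chr11:74335180-74335479, minus strand: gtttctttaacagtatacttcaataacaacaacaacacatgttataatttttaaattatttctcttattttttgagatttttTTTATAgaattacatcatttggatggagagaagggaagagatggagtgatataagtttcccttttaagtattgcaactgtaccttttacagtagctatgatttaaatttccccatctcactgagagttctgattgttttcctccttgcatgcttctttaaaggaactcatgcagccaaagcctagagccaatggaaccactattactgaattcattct
The windows of Olfr1386 and Olfr1385 shared an identical run of 42 bases, starting at base 238 of the former and base 139 of the latter, counted from the 5′ end of each window. For Olfr59 and Olfr410 the longest identical run was 8 bases. The annotated start was the start codon, ATG, in Olfr1385 and Olfr410 but not in Olfr1386 and Olfr59. The windows of each pair therefore need not cover like parts of the genes, and the runs do not measure how alike the genes are.

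Of the 83 genes, 31 (37.3%) had their midpoint in a LAD and 52 (62.7%) did not. The background was 24.6% of all protein-coding genes, 8.22% of all protein-coding genes of chromosome 11 and 6.28% of the 1243 on chromosome 11 that are not olfactory receptors. Olfactory receptor genes of all chromosomes lay in LADs in 88.5% of cases, and those of the other chromosomes in 92.6%, 950 of 1026. The share on chromosome 11 was therefore above that of the other genes of the chromosome and below that of receptor genes elsewhere. Chromosome 11 held 7.48% of all olfactory receptor genes and 40.6% of the 128 that lay outside LADs. All of the members in LADs belonged to 2 clusters, and the other 5 clusters, with 34 genes, had none.

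**Figure D1:**
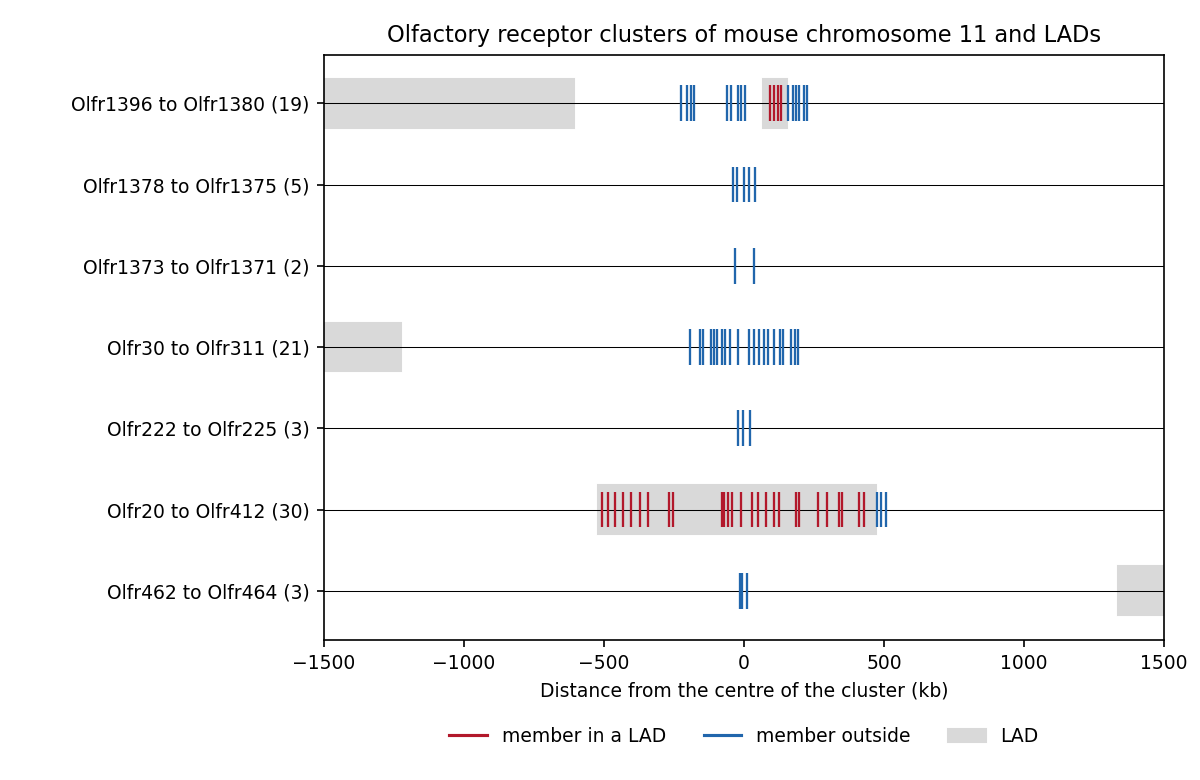
Map of the 7 clusters, 1 per row, with the number of members in parentheses. The horizontal axis is the distance from the centre of the cluster in kb, grey boxes are LADs, and each vertical line is the midpoint of a member, red in a LAD and blue outside. The cluster from Olfr20 to Olfr412 nearly fills a LAD, the cluster from Olfr1396 to Olfr1380 holds a short LAD with 4 members, and the other 5 clusters have no LAD within them.

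The cluster from Olfr20 to Olfr412 (chromosome 11, 73350859 to 74365609) was the largest, with 30 genes over 1015 kb. A single LAD from 73335442 to 74330438, 995.0 kb long, covered 96.5% of it and held 27 of its 30 members. The low end of this LAD lay 15.4 kb before Olfr20 and its high end 40.8 kb beyond Olfr59, the last member inside. Olfr410, Olfr411 and Olfr412 followed beyond the border, at 4.32, 16.7 and 34.7 kb from it. Olfr393 was the deepest member of the domain, with its midpoint 482.8 kb from a border, and Olfr20 the shallowest, at 17.3 kb. The LAD thus matched the array closely at its low end and stopped 3 genes short at its high end.

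This domain stood by itself. The LAD-free stretch before it measured 1403 kb and that after it 6627 kb, and no other LAD lay in the 1 Mb flanks on either side of the cluster. Besides the 27 receptors it held the midpoints of 3 other protein-coding genes, Spata22, a meiotic gene at the border itself (1.14 kb inside), and the zinc finger genes Zfp735 and Zfp616 within the array. On the low side, Aspa, which encodes aspartoacylase, and the heat-gated channel genes Trpv3 and Trpv1 lay outside, 19.5, 51.5 and 87.7 kb from the border. On the high side, Rap1gap2, which encodes a regulator of the small GTPase Rap1, lay outside, with its midpoint 166.7 kb from it.

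The cluster from Olfr1396 to Olfr1380 (49112777 to 49564858) had 19 genes over 452.1 kb, of which 4 (21.1%) were in a LAD. Olfr1389, Olfr1388, Olfr1387 and Olfr1386 lay in a domain of 87.5 kb (49405518 to 49493016) that held no other protein-coding gene, and 10.6% of all LADs in the list were shorter. Their midpoints were 25.4, 38.8, 32.9 and 22.4 kb from its nearest border. Olfr1385 was the member closest to a border from outside on the whole chromosome, at 1.98 kb, which is less than the 2.5 kb step of which all LAD lengths in the list were multiples (to within 36 bp). Olfr1384, Olfr1383, Olfr1382, Olfr1381 and Olfr1380 followed at 21.1 to 71.4 kb. The border therefore fell between Olfr1386 and Olfr1385, whose gene models are 23.4 kb apart.

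On the low side of the same domain, Olfr1390 lay 64.5 kb outside and Olfr1389 inside, with 89.0 kb between their gene models. Olfr1396, Olfr56, Olfr1395, Olfr1394, Olfr1393, Olfr1392, Olfr10 and Olfr1391 lay outside at 292.3 to 77.6 kb from a border. Between Olfr1394 and Olfr1393 the array was interrupted by Btnl9, a butyrophilin-like gene, Zfp62, a zinc finger gene, and Mgat1, which encodes an enzyme of N-glycan synthesis, all outside LADs. The nearest other genes were Ifi47, an interferon-inducible GTPase gene, on the low side and 1700024J04Rik on the high side, both outside. The 4 members in a LAD and both borders within this array rest on 1 short domain, and with LADs under 100 kb left out the cluster had no member in a LAD.

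The cluster from Olfr30 to Olfr311 (58454915 to 58842042) was the second in size, with 21 genes over 387.1 kb, and had no member in a LAD. Its members, Olfr30, Olfr332, Olfr331, Olfr330, Olfr329, Olfr328, Olfr224, Olfr325, Olfr324, Olfr323, Olfr322, Olfr320, Olfr319, Olfr318, Olfr317, Olfr316, Olfr315, Olfr314, Olfr313, Olfr312 and Olfr311, were between 1032 and 1419 kb from the nearest LAD border. No LAD base lay within 1 Mb of either end. The genes 2210407C18Rik, Trim58, a tripartite motif gene, and Fam183b were interspersed, and Lypd9 and Gm12258 were the nearest others, all outside LADs. Among the 38 receptor clusters of 3 or more genes on all chromosomes, 9 had no member in a LAD, and this was the one with the most genes of those 9. The next in size was on chromosome 15, with 9 genes.

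The 4 small clusters also had no member in a LAD. Olfr1378, Olfr1377, Olfr51, Olfr54 and Olfr1375 (50969020 to 51049050) were 1476 to 1556 kb from a border, and Zfp354a, a zinc finger gene, followed them. Olfr1373 and Olfr1371 (52144593 to 52213987) were the most distant members, at 2654 and 2721 kb. They lay between Ppp2ca, which encodes a catalytic subunit of protein phosphatase 2A, and Skp1, a subunit of ubiquitin ligases, both used by nearly all cells. Olfr222, Olfr223 and Olfr225 (59570782 to 59614225) were 2148 to 2191 kb away, between the inflammasome gene Nlrp3 and Mprip. Olfr462, Olfr463 and Olfr464 (87888959 to 87915003) were 1323 to 1348 kb away, between the eosinophil peroxidase gene Epx and the dynein light chain gene Dynll2. Each of the neighbours named was outside LADs.

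**Figure D2:**
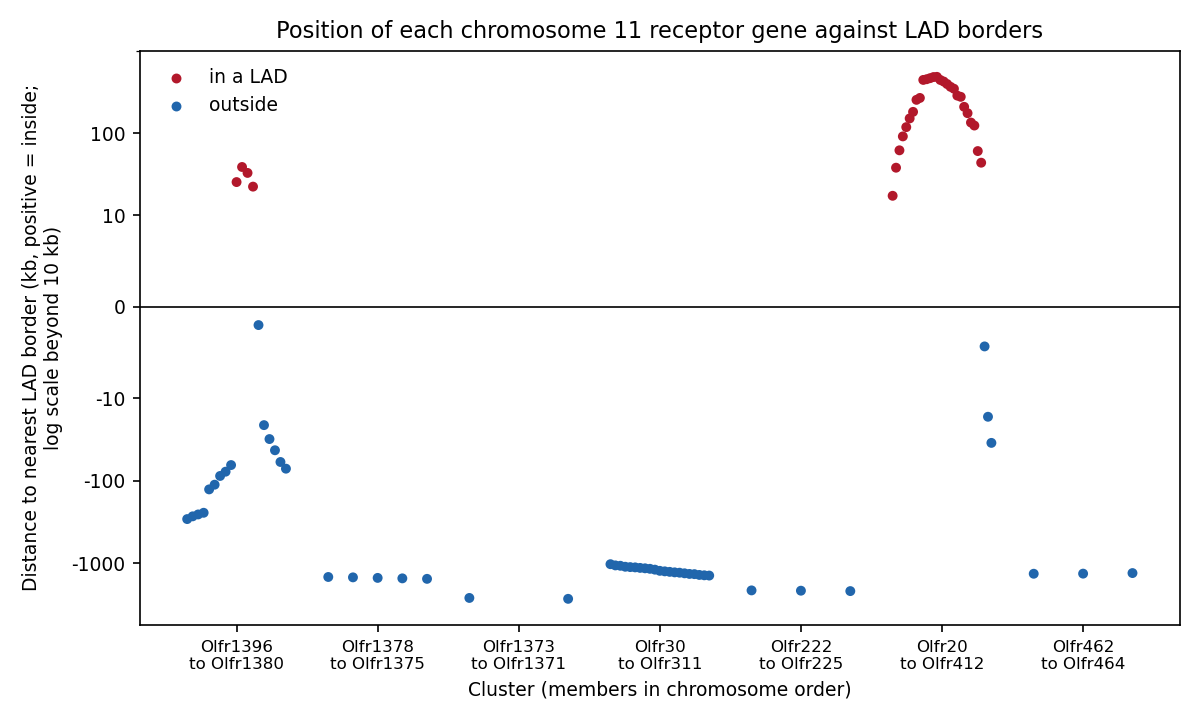
Distance in kb from the midpoint of each of the 83 members to the nearest LAD border, positive inside a LAD and negative outside, on an axis that is linear to 10 kb and logarithmic beyond. Members are in chromosome order within each cluster. Members of the clusters that begin with Olfr1396 and Olfr20 lie within 482.8 kb of a border on either side of 0, whereas all members of the other 5 lie more than 1000 kb outside.

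The distances fell into separate ranges. Of the 52 members outside LADs, 18 lay within 292.3 kb of a border and 34 lay at 1032 kb or more. Their median distance was 1167 kb, against 371.7 kb for the 76 olfactory receptor genes outside LADs on other chromosomes, 1529 kb for the 1165 other genes of chromosome 11 outside LADs and 759.6 kb for all 15923 protein-coding genes outside. On the other chromosomes, 36 of the 76 lay over 1000 kb from a border. Members in LADs had a median depth of 181.3 kb, against 609.6 kb for the 950 receptor genes in LADs elsewhere. Receptor genes of chromosome 11 were thus less deep inside and farther away outside by these medians, and no test was made of either difference.

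The 52 genes occupied 5 of the 1416 LAD-free stretches between neighbouring domains. A stretch of 6.01 Mb from 57422992 to 63437972 held 24 of them, the most receptor genes of any such stretch, together with 113 other protein-coding genes (18.8 per Mb). A stretch of 6.08 Mb from 49493017 to 55577997 held 13 beside 91 others, and one of 672.5 kb from 48733020 to 49405517 held 9 beside 15 others. The stretches with Olfr410 to Olfr412 and with Olfr462 to Olfr464 held 3 receptors each and measured 6.63 and 6.04 Mb. No LAD-free stretch on another chromosome held more than 9 receptor genes, a number reached on chromosome 15.

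Chromosome 11 had 40.6% of its stretch in LADs, the third lowest of the 19 autosomes, whose mean was 49.1% (SD over autosomes, 6.48). It had 12.3 protein-coding genes per Mb, the second highest of the autosomes, whose mean was 8.48 (SD 2.30). Chromosomes 15 and 13 had lower LAD shares, 35.5% and 40.2%, and 0 of 9 and 6 of 13 of their receptor genes were in LADs. Chromosome 7, the densest with 14.2 genes per Mb, had 97.5% of 239 receptor genes in LADs. Chromosome 17, the third densest with 11.4 per Mb and a LAD share of 45.2%, had 76% of 50. The part of gene density in these shares was not tested. Chromosome 2, with 9.95 per Mb and a LAD share of 45.1%, had 99.3% of 287 receptor genes in LADs. On chromosome 9 it was all 130 (100%). Chromosome 8, with a LAD share of 45.9%, had 0 of 5.

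**Figure D3:**
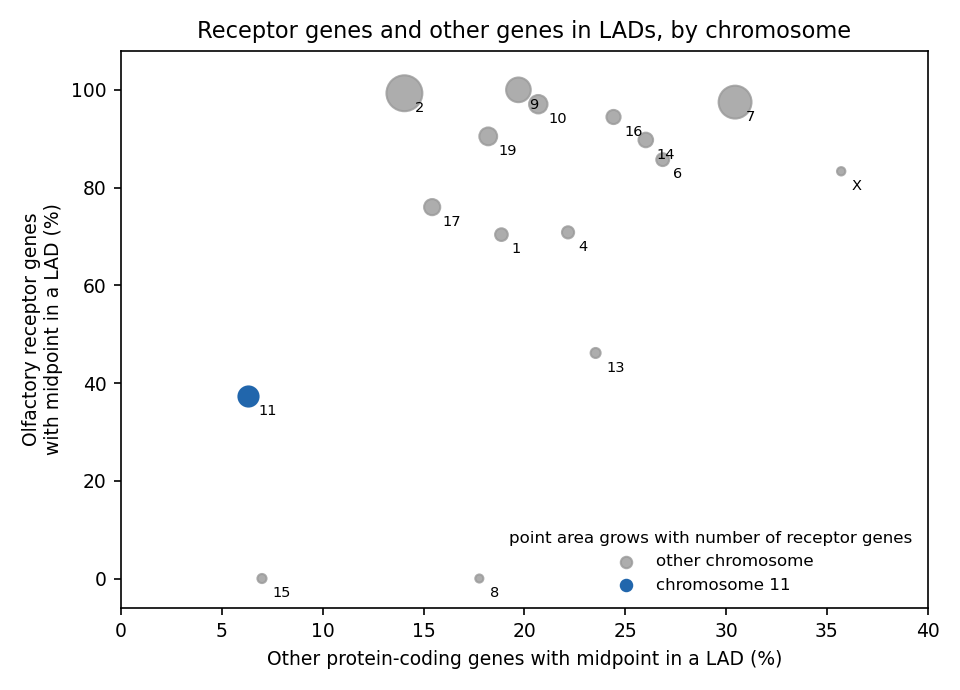
Share of olfactory receptor genes with their midpoint in a LAD (vertical axis, percent) against that of other protein-coding genes (horizontal axis, percent), for each chromosome with at least 5 receptor genes. Chromosome 11 (blue) has the lowest share of other genes in LADs of the chromosomes drawn, 6.28%, and a receptor share of 37.3%, with only chromosomes 8 and 15 lower on the vertical axis.

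The surroundings of the clusters differed as well. The 1 Mb flanks of the 7 clusters together, without the clusters themselves, were covered by LADs to 5.66%, while the cluster bodies, 2073 kb in all, were covered to 51.5%. Taken singly, flank coverage was 31.0% for Olfr1396 to Olfr1380, all from LADs that do not touch it. It was 0.771% for Olfr20 to Olfr412 and 0% for the other 5, so nearly all of the pooled value came from 1 cluster. The flank value depended on the width, with 2.02% for flanks of 500 kb and 20.1% for flanks of 2 Mb. The 9 clusters of 3 or more genes without a member in a LAD, 4 on chromosome 11 and 5 on other chromosomes, each had a flank coverage of 0%. Not all smaller clusters without a member in a LAD did. Coverage was 12.7% for Olfr370 on chromosome 8, 10.8% for Olfr49 on chromosome 14 and 6.1% for Olfr161 to Olfr15 on chromosome 16. The others were at 0%. In the 16 clusters of 3 or more genes with every member in a LAD, none of them on chromosome 11, flank coverage ran from 2.78% to 100%, with a median of 55.2%. However, this measure counts the part of a cluster's own LAD that reaches beyond the cluster and so must be above 0 there. Counting only LADs that do not touch the cluster, a measure chosen after the data were seen, the 16 had a median of 1.97%, from 0% to 39.5%, with 7 of them at 0%. The 13 clusters of 3 or more genes with some but not all members in a LAD had a median of 31.0%. They ran from 0% to 71.8%, with 3 of them at 0%. The cluster from Olfr20 to Olfr412 was also at 0% by this count, and its flank coverage of 0.771% was the part of its own LAD before Olfr20. The flanks held 24.3 other protein-coding genes per Mb (median) around the 9 clusters without a member in a LAD, with a range of 13.0 to 34.5, and 12.6 around the 16, with a range of 4.00 to 35.5, so the ranges overlapped. Over the 38 clusters of 3 or more genes, the Spearman correlation of the share of members in LADs with this density was -0.419. Without chromosome 11 it was -0.432, and neither was tested. On chromosome 11 the flank gene densities were 25.6 per Mb around Olfr30 to Olfr311, 24.3 around Olfr222 to Olfr225, 18 around Olfr1378 to Olfr1375, 13.5 around Olfr462 to Olfr464 and 11 around Olfr1373 to Olfr1371, all without a member in a LAD. They were 20 around Olfr20 to Olfr412 and 15 around Olfr1396 to Olfr1380, within the range of the other 5.

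**Figure D4:**
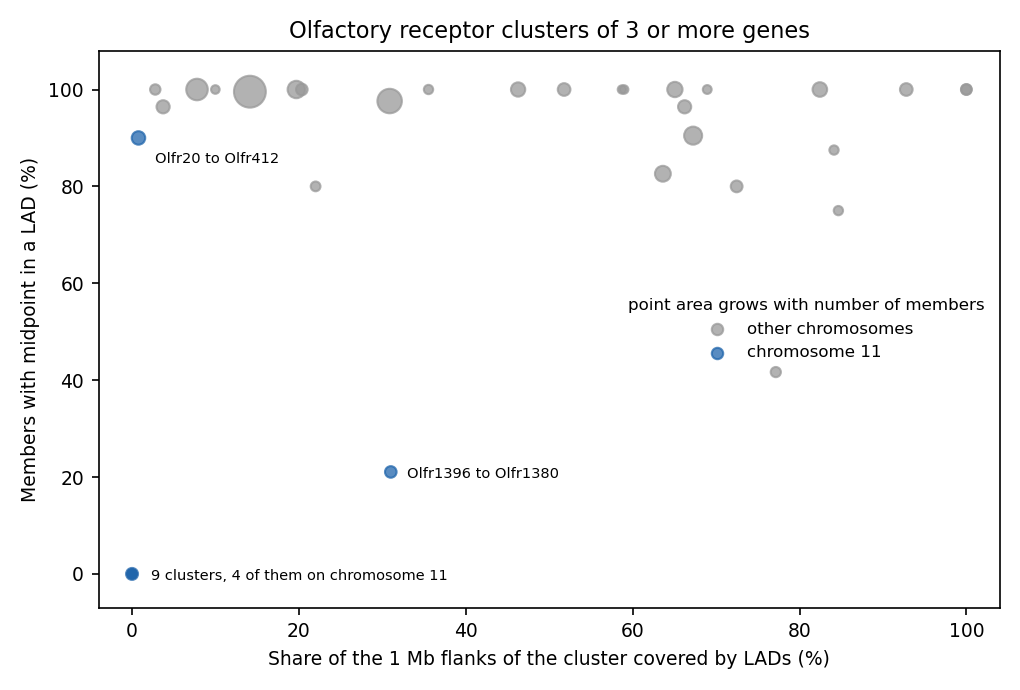
Share of members in a LAD (vertical axis, percent) against the LAD coverage of the 1 Mb flanks (horizontal axis, percent) for the 38 olfactory receptor clusters of 3 or more genes. Chromosome 11 clusters are blue. The 9 clusters at 0% on the vertical axis also have 0% flank coverage, and Olfr20 to Olfr412 has 27 of 30 members in a LAD with a flank coverage of 0.771%, all from its own LAD. Smaller clusters are not drawn, and some of those without a member in a LAD have flank coverage above 0%.

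Receptor pseudogenes, decayed copies within the arrays, were placed in the same way. Of 21 on chromosome 11, 15 lay in LADs, beside 31 of the 83 members and 8.22% of all protein-coding genes of the chromosome. A share over all pseudogenes was not computed. Of the 15, 14 lay in the domain of the cluster from Olfr20 to Olfr412, from Olfr377-ps1 to Olfr409-ps1. The other, Olfr1397-ps1 (108687077 to 108688035), was away from all 7 clusters and 195.3 kb inside a LAD. The 6 pseudogenes outside, Olfr1379-ps1, Olfr1376-ps1, Olfr1374-ps1, Olfr1372-ps1, Olfr333-ps1 and Olfr326-ps1, were in or beside the clusters without members in LADs. Counting them with the genes gave 46 in LADs.

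Start-site windows were found for 72 of the 83 members. In 47 of the 72 the annotated start was the ATG itself, so the last 50 bases of those windows are coding sequence, and the windows may not hold the promoter. Their median GC content was 40.7%, against 34.7% in 872 receptor genes of other chromosomes, 58.7% in 1199 other genes of chromosome 11 and 52.7% in all 32851 windows of the table. Windows of members in LADs had a median of 37.7% (29.0% to 46.0%, 29 genes) and of those outside 41.7% (31.0% to 52.7%, 43 genes), with overlapping ranges. By cluster the median was lowest for Olfr20 to Olfr412, at 33.5%, and highest for Olfr462 to Olfr464, at 47.0%. A window without any CpG dinucleotide occurred in 18 of the 72 members, against 34.2% of receptor genes of other chromosomes, 1.83% of the other chromosome 11 genes and 5.43% of all windows.

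Motif matches on both strands were counted in the same windows. TAATNA, which includes every TAATTA, was present in 48 of 72 members (66.7%), 65.7% of receptor genes elsewhere and 26.5% of all windows. It was present in 22 of 29 members in LADs and 26 of 43 outside. The cluster from Olfr20 to Olfr412 had it in 21 of 26 windows, so cluster and place cannot be told apart in these counts. The cluster from Olfr1396 to Olfr1380 had TAATNA in 9 of 17 windows, and of its 4 members in a LAD only Olfr1386 had it. TAATTA was present in 14 of 72 (19.4%), against 18.6% of receptor genes elsewhere and 5.29% of all windows. TATAAA was present in 20 of 72 (27.8%), against 42.2% of receptor genes elsewhere and 13.6% of all windows. The palindromic consensus of Ebf factors was found in none of the 72 and in 0.904% of all windows. The members' windows were also richer in A and T than the table, and the part of base composition in these counts was not tested. Of 2556 pairs of windows, 3 were at least 90% identical, Olfr1381 with Olfr1380 (94.7%), Olfr1382 with Olfr1373 (93.3%) and Olfr331 with Olfr325 (92.3%). All 6 genes lay outside LADs, as did 43 of the 72 members with a window. The next pair, Olfr380 with Olfr381 (81.7%), lay in a LAD. How reads that map to more than 1 copy were treated is not given in the sources used here.

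Genes that act with the receptors were placed in the same way. Of 30 listed genes of odorant signalling and receptor choice, 28 had a midpoint in a chromosome stretch analysed, and 3 (10.7%) lay in a LAD against the background of 24.6%. The difference was not tested. The 3 genes in a LAD were the transcription factor genes Ebf1 and Ebf3 and the phosphodiesterase gene Pde1c. Ebf1, which binds receptor promoters in sensory neurons, is on chromosome 11 (44618100 to 45008096). Its midpoint lay 155.1 kb inside a LAD that ends before the first receptor cluster, and a border of that LAD ran through the gene. The transduction channel genes Cnga2, Cnga4, Cngb1 and Ano2 and the receptor trafficking genes Rtp1, Rtp2 and Reep1 lay outside, Cnga4 at 19.6 kb and the others at 712.6 kb or more from a border.

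Other gene clusters of chromosome 11 gave a scale for these counts beside the chromosome's background of 8.22%. None of the 10 Hoxb genes, 27 type I keratin genes, 23 keratin-associated protein genes, 11 Ccl chemokine genes, 5 interferon-inducible GTPase genes or 5 cytokine genes lay in a LAD. All 5 Abca transporter genes (Abca5, Abca6, Abca8a, Abca8b, Abca9) did. Of the skeletal myosin heavy chain genes, Myh1, Myh4 and Myh8 had their midpoints in a LAD of 95.0 kb and Myh2, Myh3 and Myh13 did not. A short domain thus also divided this array. The midpoints of Myh1 and Myh8 were only 9.38 and 5.08 kb inside and the borders ran through both genes. Their placement, unlike that of the receptors, therefore depended on the gene position used, and only Myh4 lay wholly inside. Slfn1 and Slfn4 of 8 Slfn genes were in a LAD, and the single Cd300 gene analysed was not. Of 16 fibroblast and housekeeping genes on chromosome 11, among them Col1a1, Sparc, Polr2a and Trp53, none lay in a LAD.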

How the data were processed

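Reads of the CUT&RUN libraries were aligned with Bowtie2 to mm10, per the submitters' processing notes. How domains were called, and whether IgG or spike-in reads entered the calls, is not given in the sources used here. The authors deposited 1 merged list of domains in BED format, whose positions are in base pairs and whose score is 0 in each line, so only positions were used. The list was read as the pooled result of the 2 Lamin B1 libraries from its name. Other libraries were not analysed here, and the depth is unknown.

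Positions were counted from 1. Gene positions came from RefSeq (GRCm38.p6), and a gene was placed by its midpoint. Genes outside the stretch from the first to the last LAD of a chromosome were left out. Named genes were, for each cluster, the members outside LADs, the first, last, nearest and farthest members, the genes within it and the nearest other genes; Trpv1, Trpv3 and Aspa were added after their values were seen. Members and gene lists were chosen with earlier results of these data known. Windows of 300 bases were compared by edit distance (edlib). Protein sequences were not used here. Placement was tested on simulated data. Python 3.11.15, numpy 2.4.6, pandas 2.3.3, scipy 1.17.1 and matplotlib 3.10.9 were used. Alternatives for gene position, LAD length, joining, borders, cluster breaks and flanks are in the closing section. Some genes of the lists and some neighbouring genes are not reported here.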

Additional observations from a re-analysis of the deposited data

How the results depend on the processing

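Of 37 alternatives computed, 30 left a value unchanged or a count within 1.5 times. The number of members in LADs, 31, was 31 under each gene position, with joining at 250 kb and with LADs shortened by 2.5 kb at each end, 29 with 25 kb removed at each end, 35 with 25 kb added, and 27 with LADs of at least 100 kb or 500 kb, which leave out the short domain with Olfr1389 to Olfr1386. Shortening by 2.5 kb could not change the count, because the shallowest member in a LAD lay 17.3 kb inside. Lengthening by 2.5 kb, which bears on Olfr1385 at 1.98 kb outside, was not run. The number of other chromosome 11 genes in LADs, 78, ran from 61 with whole genes inside 1 LAD to 112 with joining at 250 kb. No cluster lay wholly in a LAD under any of the alternatives run for this count, which were gene position, LAD length, joining and cluster breaks. The LAD share of chromosome 11, 40.6%, moved to 39.9% and 36.6% with LADs of at least 100 and 500 kb, 43.3% with joining at 250 kb and 35.9% when the denominator began at position 1 and ended with the last annotated gene, each by construction. Flank coverage, 5.66%, was 2.02% with flanks of 500 kb and 20.1% with flanks of 2 Mb. The median distance of members to a border, 394.6 kb, was 389.2 kb from the nearest gene end. No paired analysis was possible because the list is merged and has no values per library, and leaving out each Lamin B1 library was not run for the same reason. Without depth, it is unknown whether a short domain such as that of 87.5 kb would recur in a single library.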
